A study of Homo sapiens with 18 samples.

Results

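The genes described here are the nuclear genes for the subunits of mitochondrial respiratory complexes I to V in RKO cells, a human colorectal carcinoma line, after depletion of ESCRT-I. They were taken by a rule on names alone, as rows whose transcript accession carries a current symbol of the NDUFA, NDUFB, NDUFC, NDUFS or NDUFV series, SDHA to SDHD, UQCR, COX4 to COX8, or ATP5F1, ATP5M or ATP5P. The rule uses no measured value, but these genes were chosen with earlier results of these data known. The rule gave 83 of 20802 genes, namely 36 of complex I, 4 of complex II, 9 of complex III, 16 of complex IV and 18 of complex V. Cells were transfected with 30 nM siRNA and harvested 72 h later. The 6 groups received 1 siRNA each, either nontargeting (siCtrl#1, siCtrl#2), against TSG101 (siTsg101#1, siTsg101#2) or against VPS28 (siVps28#1, siVps28#2), with 3 replicates each and so 18 libraries. All groups are the same cell line, and every control cell had also received an siRNA. The study's text names 3 independent experiments, and the replicate number of a library is also its batch.

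The respiratory chain sits in the inner mitochondrial membrane. Complex I (NADH dehydrogenase) and complex II (succinate dehydrogenase) pass electrons to coenzyme Q, complex III passes them on to cytochrome c, and complex IV reduces oxygen. The proton gradient that complexes I, III and IV build drives ATP synthase, called complex V. Some subunits of complexes I, III, IV and V are encoded by mitochondrial DNA, while all subunits of complex II and most of the others are nuclear genes whose products are imported. Tsg101 and Vps28 are core subunits of ESCRT-I, which sorts membrane proteins into endosomes that deliver them to lysosomes. None of the 13 protein genes of mitochondrial DNA was a target of the panel, so that only the nuclear part of each complex was measured.

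Libraries were made with an amplicon panel that reads a short stretch of each transcript, and the reads counted on genes ranged from 2561790 to 7466916 per library. Levels are given as normalized CPM, that is, counts scaled to a fixed library size (CPM) after TMM normalization, and are compared between libraries and not between genes, because each gene is read by its own amplicon. TSG101 had 346 to 688 counts with siCtrl#1, 8 to 34 with siTsg101#1 and 16 to 30 with siTsg101#2, whereas VPS28 had 364 to 514, 12 to 34 with siVps28#1 and 30 to 45 with siVps28#2, so that each target was low where its label says. Of 9 epithelial markers, KRT18, CDX2, KRT8 and EPCAM were read in every library, while KRT19, KRT20, CDH1, VIL1 and LGALS4 had at most 2 counts in any library. The endothelial list summed to at most 2 counts, the fibroblast list to at most 11, and PTPRC, CD3E and LYZ of the leukocyte list were at 0. CD68, also known as a protein of lysosomal membranes, made up nearly all of the leukocyte list (1674 to 9992 counts in sum) and rose by 0.89 on the log2 scale with the mean of the 4 on-target siRNAs (adjusted p = 6.87e-05, edgeR). EPCAM rose by 0.65 (adjusted p = 0.0381) and KRT8 fell by 0.69 (adjusted p = 0.0127) in the same edgeR contrast. With siCtrl#2 as the reference none of the 3 was called, at 0.29 for CD68 (adjusted p = 0.15), -0.38 for KRT8 (adjusted p = 0.218) and -0.37 for EPCAM (adjusted p = 0.217, edgeR), the last with the other sign; the part of these markers in the changes below was not tested.

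The subunit genes took up a similar share of the counted reads in every library, 1.147% to 1.381%. The mean share was 1.251% ± 0.091 in siCtrl#1 cells, 1.342% ± 0.034 in siCtrl#2 cells, 1.233% ± 0.099 and 1.176% ± 0.019 in cells given siTsg101#1 and siTsg101#2, and 1.239% ± 0.027 and 1.206% ± 0.055 in cells given siVps28#1 and siVps28#2 (SD, n = 3). The 4 on-target groups therefore had a lower mean share than either nontargeting group, and the siCtrl#1 libraries overlapped them. At 1.341%, siTsg101#1 replicate 2 was also above siCtrl#2 replicates 1 and 3 (1.327% and 1.318%). In bulk libraries such shares do not tell fewer transcripts per cell from more of all other transcripts, nor less RNA per cell from fewer cells of a kind.

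**Figure D1:**
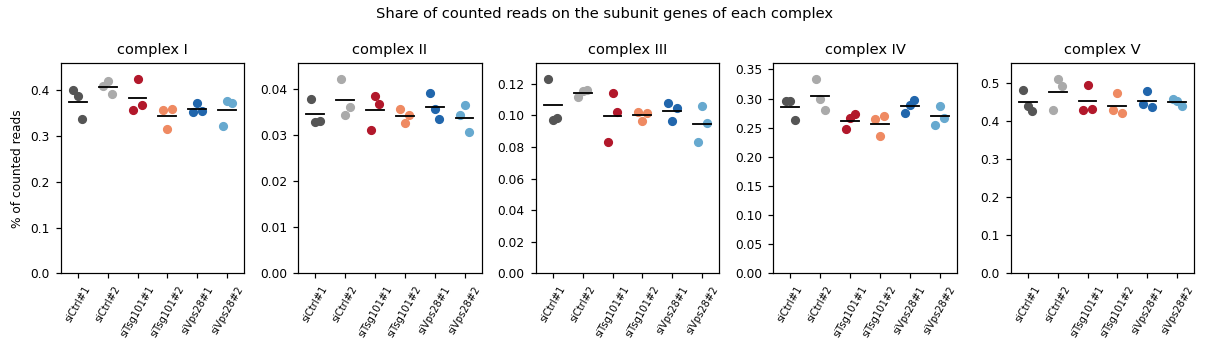
Share of counted reads (%) on the nuclear subunit genes of each complex, one point per library and one column per siRNA group of 3, with a bar at the mean and each y axis starting at 0. In every panel the columns span similar ranges, and the siCtrl#2 mean is the highest of the 6.

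Of the 83 genes, 74 had more than 100 counts over all libraries and were tested, among 10213 tested genes in all. The 9 that were not tested are described with the isoforms. With siTsg101#1, 7 subunit genes rose and 8 fell at an adjusted p under 0.05 in edgeR's quasi-likelihood test, that is 9.46% and 10.8% of the 74, beside 13.8% and 12.5% of all tested genes. siTsg101#2 raised 4 and lowered 6 subunit genes, against a background of 11.6% higher and 9.1% lower. siVps28#1 raised 1 and lowered 0, where the background was 5.38% and 4.06%, and siVps28#2 raised 0 and lowered 2, where it was 8.12% and 6.85%. In each of the 4 comparisons the share of subunit genes called in each direction was below that of all tested genes.

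Not 1 subunit gene moved one way at the threshold with every one of the 4 on-target siRNAs, in edgeR or in DESeq2, and none reached an unadjusted p under 0.05 with all 4. In the background 2.92% of genes were called higher and 1.84% lower with each of the 4. By sign alone, 10 subunit genes were above siCtrl#1 and 30 below it with all 4 siRNAs. This agreement in sign was not counted over all tested genes, so that it has no background here. The siRNAs share the same 3 siCtrl#1 libraries, so that such agreement is not independent between them. The median log2 fold change over the 74 genes was -0.05 and -0.10 for siTsg101#1 and siTsg101#2 and -0.06 and -0.10 for siVps28#1 and siVps28#2.

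**Figure D2:**
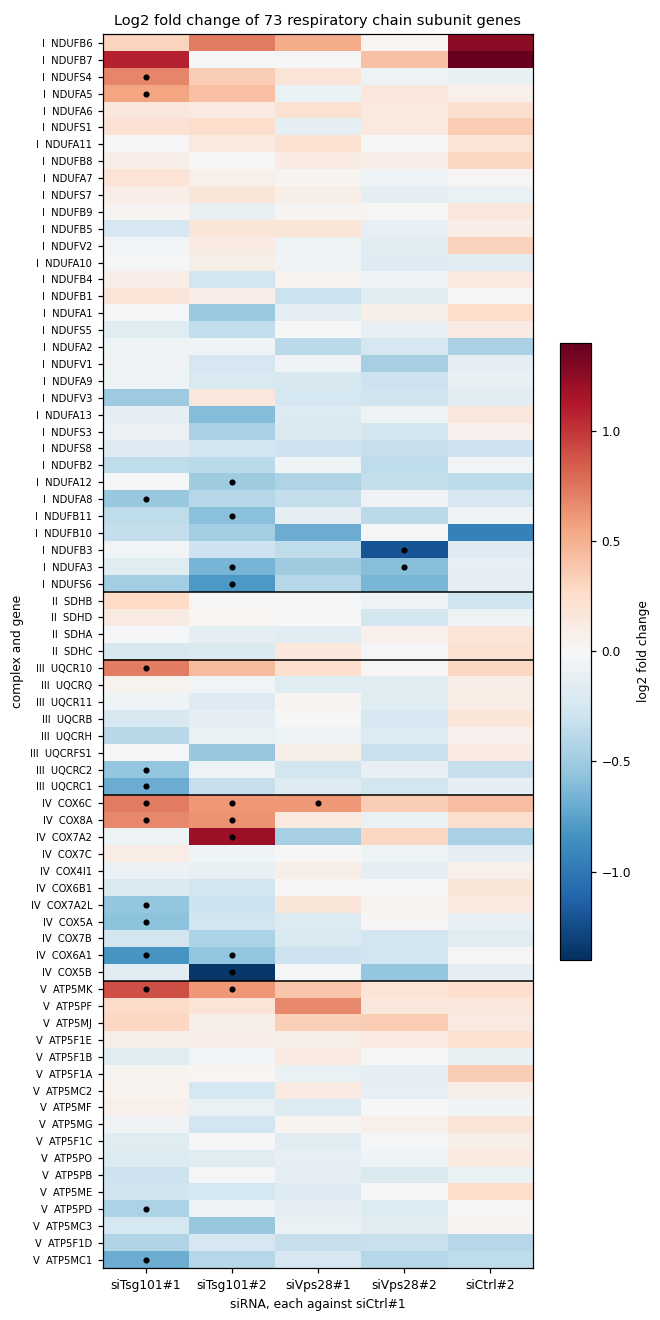
Log2 fold change against siCtrl#1 (color, red higher and blue lower) of 73 tested subunit genes (rows, by complex and then by mean change) with each on-target siRNA and with siCtrl#2 (columns). Black points mark an adjusted p under 0.05; there are 14 in the siTsg101#1 column, 10, 1 and 2 in the next columns and 0 for siCtrl#2, and no row carries 4 points.

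When the 4 on-target siRNAs were averaged and set against siCtrl#1, 3 subunit genes rose (4.05%) and 6 fell (8.11%), against 12.2% and 11.5% of all tested genes. COX6C and ATP5MK were among the genes that rose, and NDUFA3, NDUFB11, NDUFS6, COX5B, COX6A1 and ATP5MC1 fell. No change reached 1.5-fold. The median over the 74 genes was -0.09 on the log2 scale, beside a median near 0 for all tested genes (-0.0034), with 20 genes above 0 and 54 below. For 49 of the 74 (66.2%) the 95% interval of the change lay wholly within 1.5-fold in either direction, which held for 41.4% of all tested genes.

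With siCtrl#2 in place of siCtrl#1, 0 subunit genes were higher and 3 were lower, namely COX6A1, NDUFB6 and ATP5F1A, and only COX6A1 was called in the same direction with both references, 1 of the 9. The background with this reference was 8.33% higher and 7.91% lower. Of the calls that were lost, NDUFB11 stood at -0.31 against siCtrl#2, NDUFA3 at -0.36, COX5B at -0.39 and NDUFS6 at -0.45, near their values against siCtrl#1, whereas COX6C, ATP5MK and ATP5MC1 moved by more than 1.5 times, to 0.14, 0.29 and -0.08. Against the mean of both nontargeting groups 4 subunit genes were higher and 7 lower, where the background was 15% and 13.7%, and these 11 included 8 of the 9. Over all tested genes, 41.4% of the calls made with siCtrl#1 (1005 of 2426) were also made in the same direction with siCtrl#2. The median change of the 74 genes against siCtrl#2 was -0.13. Compared directly, siCtrl#2 against siCtrl#1 gave 0 called subunit genes in edgeR and 0 in DESeq2, and the background was 1.45% higher and 0.715% lower. At an unadjusted p under 0.05 in edgeR there were 10 of the 74 subunit genes and 1502 of the 10213 tested genes.

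**Figure D3:**
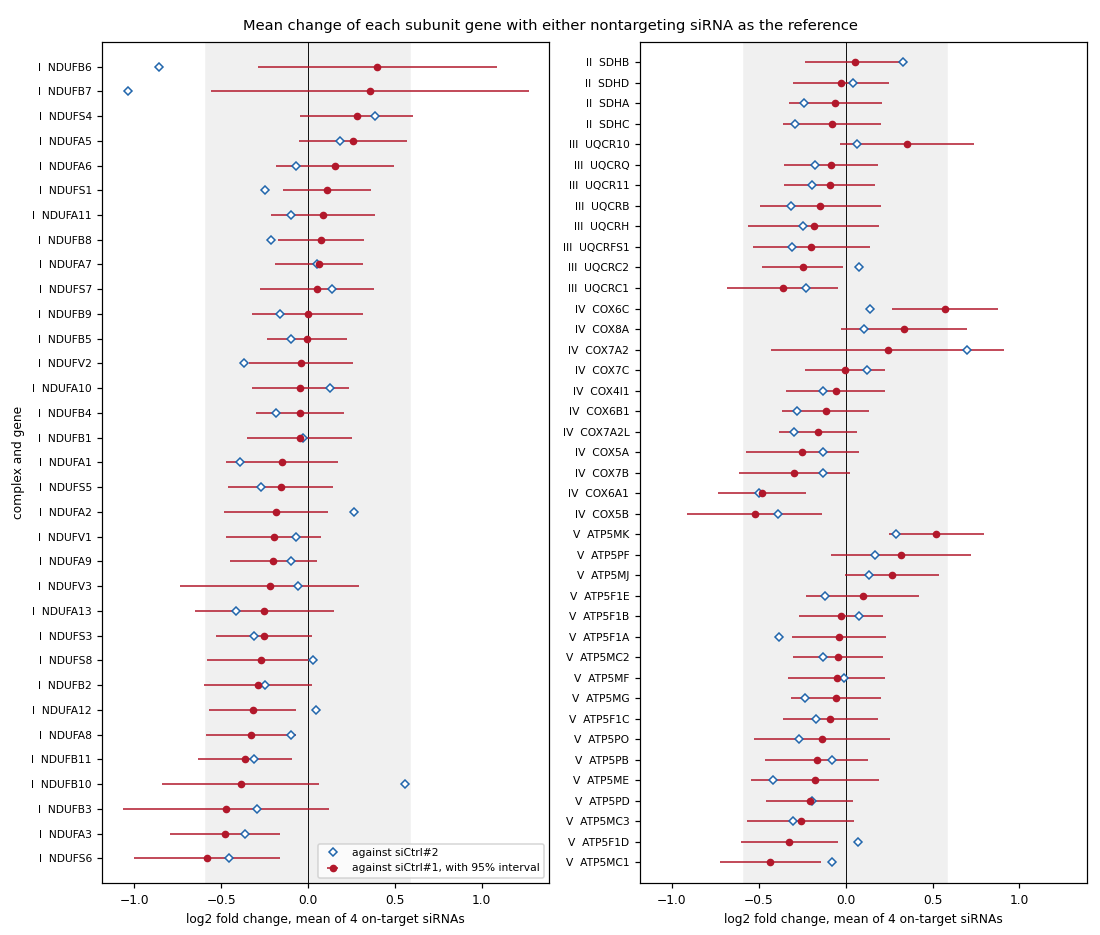
Log2 fold change of 73 tested subunit genes, averaged over the 4 on-target siRNAs (x axis), against siCtrl#1 (filled, with its 95% interval) and against siCtrl#2 (open diamonds); gray marks changes under 1.5-fold. For COX6A1 both values lie close together, at -0.48 and -0.50, while COX6C moves from 0.57 to 0.14.

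Nuclear subunit genes are known as targets of the factors NRF1, GABPA (an ETS factor) and YY1. The region before the start of the transcript is shown for 4 of the genes described at length below that hold NRF1 or GABPA letters there. Sequences are from RefSeq (GRCh38.p14), 120 bases each and 5′ to 3′ on the gene's strand. Capitals mark GCGCATGC (NRF1) or CCGGAAGT (GABPA), read on either strand.
COX6A1 (chr12:120437863-120437982, plus strand): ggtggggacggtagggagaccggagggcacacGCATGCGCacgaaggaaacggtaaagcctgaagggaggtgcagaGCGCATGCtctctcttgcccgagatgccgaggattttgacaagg
COX5B (chr2:97645942-97646061, plus strand): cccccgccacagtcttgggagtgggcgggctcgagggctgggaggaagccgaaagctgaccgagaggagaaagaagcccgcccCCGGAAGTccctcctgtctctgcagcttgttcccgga
COX8A (chr11:63974500-63974619, plus strand): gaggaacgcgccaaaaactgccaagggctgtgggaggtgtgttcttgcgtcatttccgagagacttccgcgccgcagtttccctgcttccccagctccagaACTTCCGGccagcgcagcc
NDUFS6 (chr5:1801287-1801406, plus strand): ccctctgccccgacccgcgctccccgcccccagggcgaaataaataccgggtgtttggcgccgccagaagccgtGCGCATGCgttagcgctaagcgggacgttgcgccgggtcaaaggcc
The COX6A1 stretch was placed to end 131 bases before the start, because its NRF1 letters lie there, once in each orientation. The other 3 stretches end at the start. Not shown are GABPA letters of ATP5MK, which begin at -160 from its start. Also not shown are NRF1 letters of SDHB, at -200, and of COX5B, at -136. In the 120 bases before the start, COX7A2L, ATP5MC1, NDUFA3, NDUFB11, NDUFA5 and NDUFS4, also described below, held neither the NRF1 nor the GABPA letters. Of the 83 genes, 67 had a promoter in the table (250 bases before to 50 after the start). The NRF1 letters were in 13 of them (19.4%), beside 3.05% of 35116 promoters of the same length. The GABPA letters were in 10 (14.9%, beside 4.14%) and the YY1 letters AAGATGGC in 11 (16.4%, beside 2.89%), searched on both strands, and none of the 3 letter strings contains another. Among promoters of coding genes on the panel the shares were 3.77% for NRF1, 5.51% for GABPA and 3.65% for YY1. At least 1 of the 3 was in 28 promoters, and in 5 of the 7 available for the 9 genes called in the mean contrast. Matching letters are a description and not evidence of binding.

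**Figure D4:**
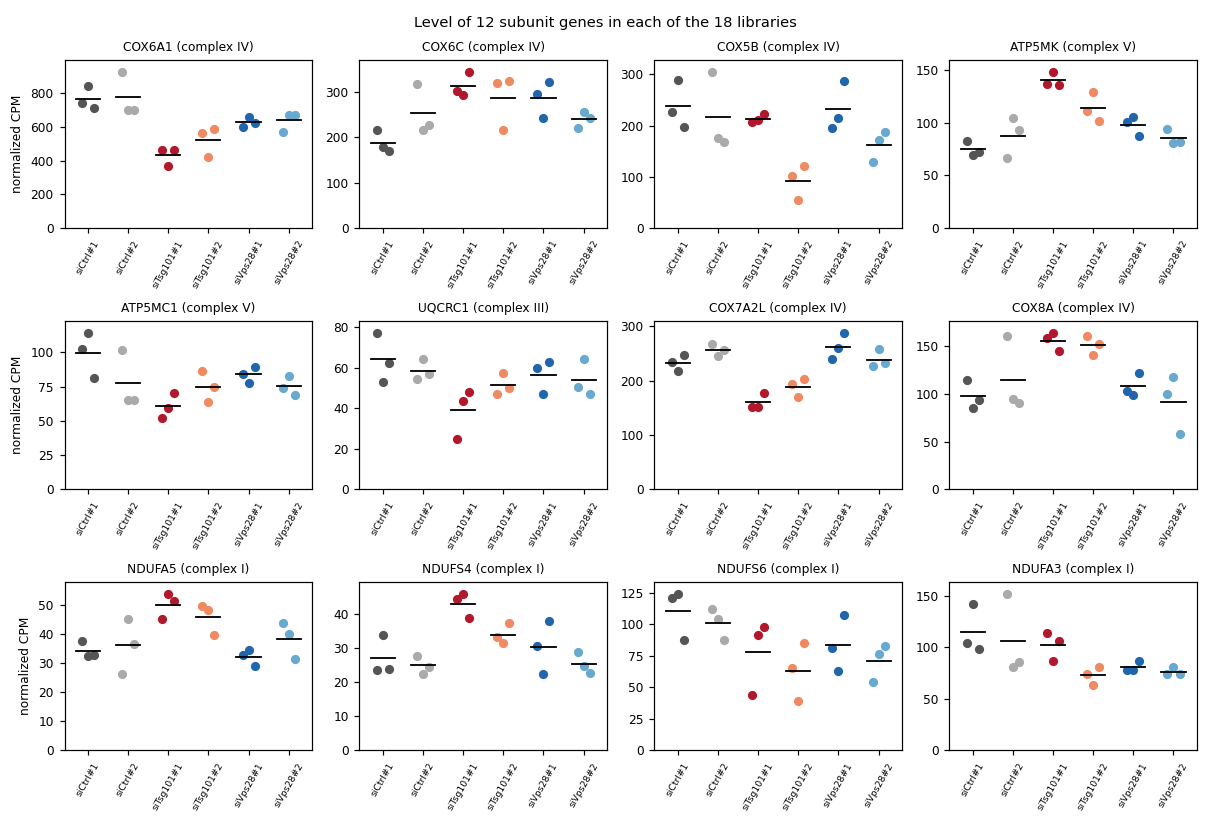
Normalized CPM (y axes from 0) of 12 subunit genes in each of the 18 libraries, as points in a column per siRNA group with a bar at the mean of 3. COX6A1 and COX7A2L are lowest in the 2 siTsg101 columns, COX8A, ATP5MK and NDUFA5 are highest there, and COX5B is lowest with siTsg101#2.

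Complex I has a matrix arm, where NADH is oxidized and electrons run along iron-sulfur clusters to coenzyme Q, and a membrane arm that pumps protons. Of its 34 tested genes 1 rose and 3 fell over the mean of the 4 siRNAs, with 11 values above 0 and 23 below. The lowest mean change in complex I was that of NDUFS6 (NM_004553), a subunit of the matrix arm. NDUFS6 stood at 121, 124 and 87.7 normalized CPM in siCtrl#1 cells, 112, 104 and 87.5 in siCtrl#2 cells, 44.2, 91.3 and 98.3 in siTsg101#1 cells, 65.4, 39.1 and 85.4 in siTsg101#2 cells, 81, 63.4 and 108 in siVps28#1 cells, and 54.4, 76.8 and 82.6 in siVps28#2 cells. All libraries of siTsg101#2 and siVps28#2 were below the 6 control libraries, and those of siTsg101#1 and siVps28#1 overlapped them. The mean change was -0.58 ± 0.20 on the log2 scale (SE, adjusted p = 0.0405, edgeR), and -0.45 ± 0.21 against siCtrl#2 (adjusted p = 0.14). Leaving out any 1 of 6 libraries ended the call, with log2 values of -0.59 to -0.50: siCtrl#1 replicates 1 and 2, siTsg101#2 replicate 1, siVps28#1 replicates 1 and 2, and siVps28#2 replicate 1.

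NDUFA3 (NM_004542) and NDUFB11 (NM_019056), small accessory subunits of the membrane arm, were the other complex I genes that fell; they were named after their values were seen. NDUFA3 ranged from 81.0 to 152 CPM in the 6 control libraries and from 64.0 to 114 in the 12 on-target libraries, and its mean change was -0.48 ± 0.15 (adjusted p = 0.0245, edgeR). It was called against siCtrl#1 with siTsg101#2 (-0.65) and siVps28#2 (-0.59) alone. Against siCtrl#2 neither was called, at -0.54 (adjusted p = 0.0651) and -0.48 (adjusted p = 0.137, edgeR). Without siCtrl#1 replicate 2 the mean change was -0.31 (adjusted p = 0.253). NDUFB11 changed by -0.36 ± 0.13 (adjusted p = 0.0457, edgeR), a call that any 1 of 10 of the 18 libraries decided, with log2 values of -0.40 to -0.33 without it: all 3 of siCtrl#1, siTsg101#1 replicates 1 and 3, siTsg101#2 replicate 2, siVps28#1 replicates 1 and 2, and siVps28#2 replicates 1 and 3. Both overlap a gene on the other strand, NDUFA3 by 150 bases with TFPT and NDUFB11 by 246 bases with RBM10, and whether the counting used strand is not given in the sources used here.

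NDUFB6 (NM_002493), NDUFB10 (NM_004548) and NDUFB7 (NM_004146), accessory subunits of the membrane arm, had the smallest p for siCtrl#2 against siCtrl#1, with log2 changes of 1.26, -0.95 and 1.39 and adjusted p of 0.0882, 0.103 and 0.194 (edgeR). NDUFB6 had only 5 to 24 counts per library, NDUFB10 21 to 102 and NDUFB7 22 to 254. Their mean changes with the 4 on-target siRNAs had opposite signs against siCtrl#1 and siCtrl#2, at 0.40 and -0.86 for NDUFB6, -0.39 and 0.56 for NDUFB10 and 0.36 and -1.04 for NDUFB7, of which only the NDUFB6 value against siCtrl#2 was called (adjusted p = 0.0328, edgeR). NDUFB7 stood at 12.6, 9.41 and 49 CPM with siCtrl#2 and 38.5, 10.2 and 13 with siTsg101#1, so that 1 library of each group carried the high value. NDUFB3 (NM_002491) fell with siVps28#2 alone (-1.20 ± 0.39, adjusted p = 0.0363), at 301 counts over all libraries, and was at -1.03 against siCtrl#2 (adjusted p = 0.105, edgeR). With siVps28#2, NDUFB10 was called higher (0.92, adjusted p = 0.0434) and NDUFB6 lower (-1.23, adjusted p = 0.0303, edgeR) against siCtrl#2 instead. Against siCtrl#1, NDUFA5 and NDUFS4 were among the genes that rose with siTsg101#1 and NDUFA8 fell, and with siTsg101#2 NDUFA3, NDUFA12, NDUFB11 and NDUFS6 fell, so that no complex I gene was called with both. Of these named genes, only NDUFS4 (0.78) and NDUFB11 (-0.54) were also called against siCtrl#2. NDUFA8 stood at -0.30 (adjusted p = 0.212) and NDUFA12 at -0.14 (adjusted p = 0.594, edgeR). With siTsg101#2, NDUFA1, NDUFA13 and NDUFS3 were called lower against siCtrl#2 instead.

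Complex II also catalyzes a step of the tricarboxylic acid cycle. Against siCtrl#1 its 4 genes ranged in mean change from -0.08 (SDHC) to 0.05 (SDHB), none was called with any siRNA, and all 4 intervals lay within 1.5-fold. Against siCtrl#2 they ranged more widely, from -0.29 (SDHC) to 0.33 (SDHB), with none called over the mean of the 4 siRNAs, and SDHB was called with siTsg101#1 (0.56, adjusted p = 0.0289, edgeR). SDHB (NM_003000), the iron-sulfur subunit, stood at 45.3, 69.5 and 51.8 normalized CPM in siCtrl#1 cells, 57.6, 41.3 and 38.2 in siCtrl#2 cells, 70.4, 66.1 and 65.3 in siTsg101#1 cells, 54.8, 53.5 and 59.5 in siTsg101#2 cells, 50.5, 57.1 and 56.8 in siVps28#1 cells, and 47.1, 59.6 and 51.5 in siVps28#2 cells. Its libraries overlapped between all groups except that the siTsg101#1 values lay above those of siCtrl#2, siTsg101#2, siVps28#1 and siVps28#2. For SDHC (NM_003001), a membrane anchor, the interval of the mean change was -0.36 to 0.20 and for SDHB -0.23 to 0.34, both on the log2 scale.

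Complex III had 8 tested genes and none was called over the mean of the 4 siRNAs, with 1 value above 0 and 7 below. The extremes were UQCR10 (NM_013387), a small subunit (0.35, interval -0.03 to 0.74), and UQCRC1 (NM_003365), a core protein on the matrix side (-0.36, interval -0.68 to -0.04, adjusted p = 0.0939, edgeR). With siTsg101#1 alone, UQCR10 rose by 0.72 on the log2 scale and UQCRC1 fell by 0.69, both against siCtrl#1. UQCRC1 stood at 77, 52.9 and 62.4 CPM with siCtrl#1 and 25, 43.8 and 48 with siTsg101#1, without overlap, and the other on-target groups overlapped siCtrl#1. The other core protein, UQCRC2 (NM_003366), fell in the same siRNA group (-0.54 ± 0.15, adjusted p = 0.00825). Against siCtrl#2 all 3 calls were lost, at 0.43 for UQCR10 (adjusted p = 0.194), -0.56 for UQCRC1 (adjusted p = 0.0589) and -0.22 for UQCRC2 (adjusted p = 0.323, edgeR). With siTsg101#2, UQCRFS1 was called lower against siCtrl#2 (-0.65, adjusted p = 0.0361, edgeR).

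In complex IV, cytochrome c oxidase, small nuclear subunits surround a catalytic core made by mitochondrial DNA. Of its 11 tested genes 1 rose and 2 fell over the mean of the 4 siRNAs. COX6A1 (NM_004373), the form of subunit 6A found in most tissues, was the one subunit gene called with both references. COX6A1 stood at 744, 845 and 716 normalized CPM in siCtrl#1 cells, 925, 702 and 702 in siCtrl#2 cells, 461, 369.9 and 467 in siTsg101#1 cells, 563, 421 and 589.9 in siTsg101#2 cells, 602, 661 and 623 in siVps28#1 cells, and 573, 669.5 and 674 in siVps28#2 cells. All 12 on-target libraries were below all 6 control libraries, and the 6 siTsg101 libraries reached at most 589.9 CPM. The mean change was -0.48 ± 0.12 on the log2 scale against siCtrl#1, a fold of 0.715 (adjusted p = 0.00564, edgeR), and -0.50 ± 0.12 against siCtrl#2 (adjusted p = 0.00652).

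Split by siRNA, COX6A1 fell with siTsg101#1 (-0.83, adjusted p = 0.000561) and siTsg101#2 (-0.55, adjusted p = 0.0173), and both calls also held against siCtrl#2. With siVps28#1 and siVps28#2 the values were -0.29 and -0.27, which did not pass the test (adjusted p = 0.296 and 0.296, edgeR). Without siCtrl#1 replicate 2, the highest library of that group, the mean change was -0.42 and just missed the threshold (adjusted p = 0.0552). The gene lies at chr12:120875893-120878540 (GRCh37), and 47.1% of its transcript is shared, in stretches of 50 bases, with other loci, mostly the pseudogene COX6A1P2, so that reads of either may be counted together.

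COX6C (NM_004374), another small membrane subunit, had the highest mean change of the 74 genes. COX6C stood at 216, 179.8 and 170.3 normalized CPM in siCtrl#1 cells, 318, 217 and 228 in siCtrl#2 cells, 301, 294 and 344 in siTsg101#1 cells, 319, 217 and 325 in siTsg101#2 cells, 295, 244 and 322 in siVps28#1 cells, and 221, 256 and 244 in siVps28#2 cells. Every on-target library was above the 3 siCtrl#1 libraries, and so were those of siCtrl#2. Its mean change was 0.57 ± 0.15 (fold 1.49, adjusted p = 0.00621, edgeR) and 0.14 ± 0.14 against siCtrl#2 (adjusted p = 0.548), and the call was lost without siCtrl#1 replicate 3 (0.50, adjusted p = 0.0549). COX6C shares 320 exon bases with an unnamed gene on the other strand.

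COX5B (NM_001862), a zinc-binding subunit on the matrix side, had the lowest mean change of complex IV, with the largest fall for siTsg101#2. COX5B stood at 226, 288 and 198 normalized CPM in siCtrl#1 cells, 304, 177 and 168 in siCtrl#2 cells, 206, 210.4 and 223 in siTsg101#1 cells, 102, 54 and 120.5 in siTsg101#2 cells, 195, 215 and 286 in siVps28#1 cells, and 129, 172 and 188 in siVps28#2 cells. The 3 siTsg101#2 libraries were below every other library, and the siTsg101#1 and siVps28#1 libraries overlapped both control groups. The siVps28#2 libraries were below those of siCtrl#1 and overlapped those of siCtrl#2. The fall with siTsg101#2 was -1.37 ± 0.25, a fold of 0.388 (adjusted p = 0.000449, edgeR), against -0.15 for siTsg101#1 and -0.03 and -0.54 for the siVps28 siRNAs. Against siCtrl#2 the siTsg101#2 value was -1.23 (adjusted p = 0.00135). The mean over the 4 siRNAs was -0.52 ± 0.19 (adjusted p = 0.0463), a call that ended, at log2 values of -0.56 to -0.37, without any 1 of 9 libraries: siCtrl#1 replicates 1 and 2, all 3 of siTsg101#1, replicates 1 and 2 of siVps28#1 and replicates 1 and 2 of siVps28#2. The gene (chr2:98262525-98264846, GRCh37) shares no stretch and overlaps no exon of another gene.

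ATP synthase consists of a catalytic F1 part (ATP5F1 genes), a peripheral stalk (ATP5P genes) and a membrane part with the ring of subunit c (ATP5MC genes). Of its 17 tested genes 1 rose and 1 fell over the mean of the 4 siRNAs, with 4 values above 0 and 13 below. ATP5MK (NM_001206426), a small membrane subunit also called DAPIT, rose. ATP5MK stood at 82.9, 69.2 and 72.5 normalized CPM in siCtrl#1 cells, 66.2, 105 and 92.9 in siCtrl#2 cells, 137, 148 and 136 in siTsg101#1 cells, 111, 129 and 102 in siTsg101#2 cells, 101, 106 and 87.7 in siVps28#1 cells, and 94.2, 80.5 and 81.9 in siVps28#2 cells. All 6 siTsg101 libraries were above the 3 siCtrl#1 libraries, and the siVps28#2 libraries overlapped both control groups. Its mean change was 0.52 ± 0.13 (fold 1.44, adjusted p = 0.00581, edgeR) and 0.29 ± 0.13 against siCtrl#2 (adjusted p = 0.135). The rise with siTsg101#1, 0.90, was called against siCtrl#1 and also against siCtrl#2 (0.67, adjusted p = 0.00473), whereas that with siTsg101#2, 0.61, was 0.37 against siCtrl#2 (adjusted p = 0.114). Its transcript overlaps MIR1307 by 142 bases.

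The 3 genes for subunit c encode the same mature protein behind different import sequences, and their values are given side by side. ATP5MC1 (NM_001002027) had the lowest mean change of complex V. ATP5MC1 stood at 103, 114 and 81.2 normalized CPM in siCtrl#1 cells, 102, 65.3 and 65.1 in siCtrl#2 cells, 52.4, 59.5 and 70.1 in siTsg101#1 cells, 86.4, 63.7 and 74.8 in siTsg101#2 cells, 84.5, 78 and 89.7 in siVps28#1 cells, and 74.2, 82.9 and 68.5 in siVps28#2 cells. The siTsg101#1 libraries were below those of siCtrl#1, while 2 of the 3 siCtrl#2 libraries lay among the on-target values. Its mean change was -0.43 ± 0.14 (adjusted p = 0.0276, edgeR) and -0.08 against siCtrl#2 (adjusted p = 0.78), and the call was lost without siCtrl#1 replicate 1 or 2 (-0.41 and -0.33). ATP5MC2 had a mean change of -0.05 (interval -0.31 to 0.21) and ATP5MC3 one of -0.26 (interval -0.57 to 0.05), and neither was called with any siRNA against siCtrl#1. Against siCtrl#2, ATP5MC3 was called with siTsg101#2 (-0.57, adjusted p = 0.0426, edgeR). Differences between the 3 genes were not tested.

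Several subunits of complex IV exist as a common form and as a form known from muscle, testis or lung. The common forms COX4I1, COX6A1, COX6B1, COX7B and COX8A were read with at least 224 counts in each library, and COX7A2 with 4 to 44. COX4I2, COX6A2 and COX7A1 had 0 of the 92502530 counted reads, which allows a level of up to 0.0324 CPM (3 counts, counting error only). COX7B2 had 1 count, COX6B2 47 (0 to 8 per library), and COX8C was not a target of the panel. Of the other untested genes, NDUFC1 had 55 counts, NDUFC2 18, ATP5MGL 74 and UQCRHL 3, the last beside 199 to 1293 counts per library of UQCRH, with which it shares 33.4% of the UQCRH transcript. The lowest totals that passed were 218 for NDUFB6, 280 for COX7A2 and 301 for NDUFB3. Against siCtrl#1 the mean changes of the common forms were -0.06 for COX4I1, -0.12 for COX6B1 and 0.24 for COX7A2. They were -0.30 for COX7B, 0.34 for COX8A and -0.18 for UQCRH, and none of these genes was called.

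A direct contrast set both siTsg101 groups against both siVps28 groups. Control libraries entered it only through the spread, which was estimated over all 6 groups. With 2 siRNAs per target and a spread between libraries, it cannot tell a difference between targets from one between siRNA sequences. In it 4 subunit genes were higher and 2 lower (5.41% and 2.7% of the 74), against 6.56% and 5.26% of all tested genes, and the counts were 6 and 2 with the replicate block, which added NDUFB1 and UQCR10. Higher after Tsg101 depletion were COX8A, ATP5MK, NDUFA5 and NDUFS4, and lower were COX7A2L and COX6A1. For 59 of the 74 (79.7%) the interval of the difference lay within 1.5-fold, which held for 59.4% of all tested genes. Between siCtrl#1 and both siTsg101 siRNAs, COX6C, COX8A and ATP5MK were called higher and COX6A1 lower with each of the pair, where the background was 8% higher and 4.89% lower.

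COX7A2L (NM_004718), known for its role in joining complexes III and IV into supercomplexes, had the smallest p. COX7A2L stood at 235, 217 and 248 normalized CPM in siCtrl#1 cells, 268, 245 and 257 in siCtrl#2 cells, 151, 152 and 177 in siTsg101#1 cells, 193, 169 and 204 in siTsg101#2 cells, 240.1, 260.5 and 287 in siVps28#1 cells, and 226, 258 and 232 in siVps28#2 cells. All 6 siTsg101 libraries were below the other 12. The difference was -0.52 ± 0.10 on the log2 scale (fold 0.695, adjusted p = 0.000694, edgeR). Against siCtrl#1 the change was -0.54 with siTsg101#1 (adjusted p = 0.00601) and -0.31 with siTsg101#2 (adjusted p = 0.121, not called), and against siCtrl#2 both were called, at -0.68 (adjusted p = 0.00127) and -0.44 (adjusted p = 0.0298). Only 0.0998% of its 50-base stretches are shared with other loci, and its call, like those of COX8A and ATP5MK in this contrast, passed the threshold without any 1 of the 18 libraries.

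COX8A (NM_004074), the smallest nuclear subunit of complex IV, went the other way. COX8A stood at 114, 85.4 and 94.2 normalized CPM in siCtrl#1 cells, 161, 94.3 and 90.4 in siCtrl#2 cells, 159, 164 and 145 in siTsg101#1 cells, 161, 141 and 153 in siTsg101#2 cells, 103, 98.4 and 122 in siVps28#1 cells, and 99.9, 118 and 58 in siVps28#2 cells. The 6 siTsg101 libraries were above all 6 siVps28 libraries and above every control library but siCtrl#2 replicate 1. The difference was 0.62 ± 0.15 (fold 1.54, adjusted p = 0.00858, edgeR), the only one of the 6 past 1.5-fold. Against siCtrl#2 neither siTsg101 siRNA was called (0.44 and 0.40, adjusted p = 0.172 and 0.218). COX8A shares 28.5% of its transcript with an overlapping unnamed gene.

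The difference was 0.46 ± 0.11 for ATP5MK (adjusted p = 0.00811) and -0.41 ± 0.11 for COX6A1 (adjusted p = 0.0185), both by edgeR. For COX6A1 the call was lost without replicate 2 of siTsg101#1 or of siTsg101#2 (-0.36 and -0.34). NDUFA5 (NM_005000), an accessory subunit of the matrix arm, stood at 45, 53.5 and 51.4 normalized CPM in siTsg101#1 cells, 49.6, 48.3 and 39.5 in siTsg101#2 cells, 32.8, 34.6 and 28.8 in siVps28#1 cells, and 43.5, 40 and 31.2 in siVps28#2 cells, with every siTsg101 library but replicate 3 of siTsg101#2 above all siVps28 libraries. NDUFS4 (NM_002495), also of the matrix arm and named after its values were seen, had 91 to 280 counts per library, and its siTsg101#1 libraries were above those of siVps28. Their differences were 0.45 (adjusted p = 0.0239) and 0.46 (adjusted p = 0.0281), both by edgeR. Each of these 2 calls was lost when any 1 of 6 libraries was left out. For NDUFA5 (0.39 to 0.44) these were siTsg101#1 replicates 2 and 3, siTsg101#2 replicates 1 and 2, siVps28#1 replicate 3 and siVps28#2 replicate 3, and for NDUFS4 (0.36 to 0.45) siTsg101#1 replicates 1 and 2, siTsg101#2 replicate 3, siVps28#1 replicate 2 and siVps28#2 replicates 2 and 3.

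The 2 siRNAs against one target were also compared, a contrast chosen after the values were seen. Between siTsg101#1 and siTsg101#2, 3 subunit genes differed, and 7.95% of all tested genes did. COX5B was higher with siTsg101#1 by 1.21 ± 0.25 on the log2 scale (adjusted p = 0.00345, edgeR). COX7A2 (NM_001865) was lower with siTsg101#1 than with siTsg101#2 (-1.25 ± 0.36, adjusted p = 0.0331, edgeR). Its levels were 2.05, 1.57 and 3.21 CPM against 6.86, 3.74 and 6.98. Against siCtrl#2, COX7A2 was called higher with siTsg101#2 (1.66, adjusted p = 0.00356) but not with siTsg101#1 (0.40, adjusted p = 0.581, edgeR). Without replicate 1 or 2 of siTsg101#1 or replicate 1 or 3 of siTsg101#2 the call between the siRNAs was lost (-1.18 to -1.05). UQCRC2 was lower with siTsg101#1 (-0.47 ± 0.15, adjusted p = 0.0486), a call that was lost without any 1 of 15 libraries (-0.55 to -0.42), that is, all except siCtrl#2 replicate 1 and siVps28#2 replicates 1 and 3. Between siVps28#1 and siVps28#2, 0 subunit genes and 0.48% of all tested genes differed by edgeR. At an unadjusted p under 0.05, 5 of the 74 subunit genes and 823 of the 10213 tested genes did.

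The mitochondrial genes around the subunits were counted from lists written from general knowledge. Of the assembly factors for the complexes, those called were all lower. Of 16 factors for complex I, 0 rose and 5 fell over the mean of the 4 siRNAs, of 4 for complex II 0 and 1, of 6 for complex III 0 and 2, of 23 for complex IV 0 and 1, and of 4 for ATP synthase 0 and 0, beside 12.2% higher and 11.5% lower of all tested genes. The list medians were -0.14, -0.09, -0.45, 0.04 and -0.21 in that order, against -0.0034 over all tested genes. With siCtrl#2 as the reference they were 0.0819, -0.109, -0.198, -0.0116 and -0.125, so that those of complexes I and IV changed sign, and only 3 factors were called, all lower.

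UQCC2, an assembly factor for cytochrome b of complex III, fell by 0.91 ± 0.14 on the log2 scale (adjusted p = 3.49e-05, edgeR), with values of -0.96, -0.84, -0.66 and -1.18 for the 4 siRNAs in the order siTsg101#1, siTsg101#2, siVps28#1 and siVps28#2. Against siCtrl#2 its mean change was -0.61 ± 0.14 (adjusted p = 0.00333). It shares 1132 exon bases with genes of the other strand, ITPR3 and MIR3934. SDHAF3, which helps insert iron-sulfur clusters into complex II, fell by 0.62 ± 0.15 (adjusted p = 0.00456) and by 0.46 against siCtrl#2 (adjusted p = 0.0447), both by edgeR, and shares no sequence or exon with another gene. These 2 were the assembly factors called with both references; ACAD9 (-0.63) for complex I, UQCC3 (-0.95) for complex III, and COX10 (-0.43), an enzyme of heme A synthesis for complex IV, were called against siCtrl#1 but not against siCtrl#2. No assembly factor list had a member that rose; the smallest p among positive values was that of NUBPL for complex I (0.38, adjusted p = 0.247), SDHAF4 for complex II (0.16, adjusted p = 0.725) and COA6 for complex IV (1.09, adjusted p = 0.0854, 1 to 23 counts per library), and ATPAF1 had the smallest p among negative values for ATP synthase (-0.32, adjusted p = 0.0776). For the subunits outside the naming rule, 6 genes tested, 0 rose and 1 fell: CYC1, the cytochrome c1 of complex III (-0.55 ± 0.18, adjusted p = 0.0296), at -0.31 against siCtrl#2 (adjusted p = 0.269).

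Of 18 enzymes of the tricarboxylic acid cycle and of pyruvate dehydrogenase, 4 were higher (22.2%) and 0 lower, beside 12.2% and 11.5% of all tested genes. The list median was 0.083, beside 0.0834 for siCtrl#2 against siCtrl#1. None of these 4 was called against siCtrl#2, where citrate synthase, CS, was higher (0.48) and fumarate hydratase, FH, lower (-0.47). DLD, the dihydrolipoamide dehydrogenase of these enzyme complexes, rose by 0.58 ± 0.12 (adjusted p = 0.00122, edgeR), with 0.55 to 0.63 for the single siRNAs, and was at 0.26 against siCtrl#2 (adjusted p = 0.138). IDH2 had the smallest p among the lower ones (-0.49, adjusted p = 0.0867) and was called with the replicate block (adjusted p = 0.00328, edgeR), which gave 4 higher and 1 lower. Of 14 genes for cytochrome c and coenzyme Q, COQ10B rose (0.48) and COQ8A fell (-0.52), of whose transcript 96.3% is shared with an overlapping unnamed gene. Against siCtrl#2 these stood at 0.097 and -0.16 and were not called. Of 16 regulators of mitochondrial biogenesis 1 rose, SSBP1 (0.40, and 0.36 against siCtrl#2, not called), a DNA-binding protein of mitochondria, and 1 fell, the transcription factor NRF1 (-0.58 ± 0.15, adjusted p = 0.00715), which stood at -0.61 to -0.50 with the single siRNAs and -0.24 against siCtrl#2 (adjusted p = 0.331). Of 26 import genes 2 rose and 2 fell, with TOMM20, an import receptor (0.60), and TOMM40, the import channel (-0.45), at the smallest p. Against siCtrl#2 they were at 0.073 (adjusted p = 0.769) and -0.111 (adjusted p = 0.557, edgeR). The shares called in these 3 lists, 6.25% to 7.69% in each direction, were below those of all tested genes.

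Of 70 proteins of the mitochondrial ribosome, 4 rose and 10 fell (median -0.13), that is 5.71% and 14.3%, beside 12.2% and 11.5% of all tested genes. MRPL34, a protein of its large subunit, rose by 1.63 ± 0.32 (adjusted p = 6.06e-04, edgeR), by 2.60 and 2.76 with the siTsg101 siRNAs and by 0.66 and 0.48 with the siVps28 siRNAs; it had 5 to 123 counts per library and overlaps ABHD8 on the other strand by 223 bases. MRPL34 was the single ribosomal protein called with both references (1.90 against siCtrl#2, adjusted p = 2.88e-04), and MRPL23 had the smallest p among those that fell (-0.74, adjusted p = 0.00181; -0.32 against siCtrl#2, adjusted p = 0.213). Against siCtrl#2 the ribosome list held 4 higher and 0 lower, where 8.33% and 7.91% of all tested genes were called.

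**Figure D5:**
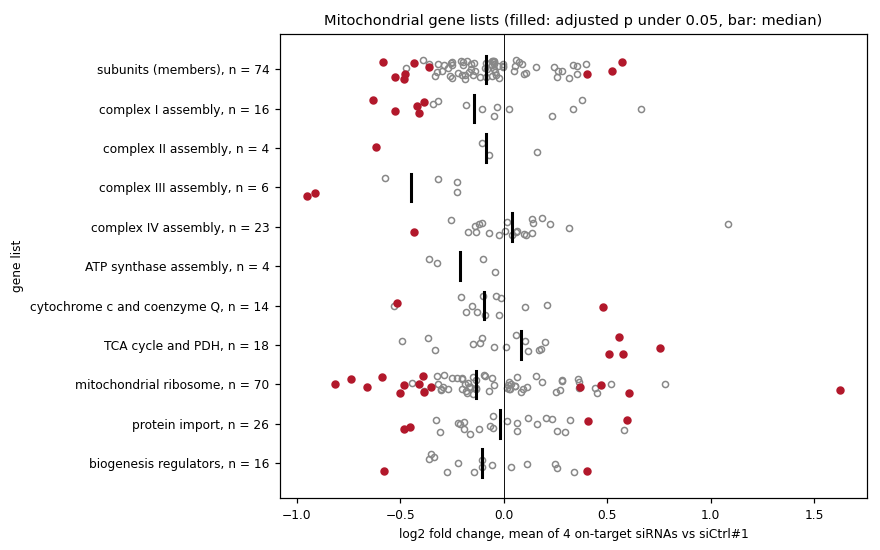
Log2 fold change averaged over the 4 on-target siRNAs and relative to siCtrl#1 (x axis) of the subunit genes and of 10 lists of other mitochondrial genes (rows), one point per tested gene, filled where the adjusted p is under 0.05, with a bar at the list's median. The complex III assembly list lies wholly below 0, with a median of -0.45, and the filled points of the tricarboxylic acid list all lie above 0.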

How the data were processed

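RNA of 18 RKO libraries was measured with the Ion AmpliSeq Transcriptome panel. Per the methods and the labels, the authors used the Torrent Mapping Alignment Program to map reads to the panel's hg19 reference and deposited unnormalized counts per transcript target from HTSeq 0.6.0. Rows for reads without a feature (48.23% to 49.07% of a library's reads) and 10 spike-in rows were left out.

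Accessions of 20228 of 20802 genes matched a symbol. As in the study's methods, genes with more than 100 counts in all and of coding type were tested (10213). Counts were scaled by TMM and fitted over all 6 groups in edgeR 4.0.16 (R 4.3.3, quasi-likelihood test, two-sided, Benjamini-Hochberg adjustment over all tested genes, threshold 0.05). Values after ± are SE for fold changes, and intervals are 95%. The subunit genes, gene lists and tests were chosen with earlier results of these data known. Named genes are, per complex, the highest and lowest mean change, the 5 smallest p for Tsg101 against Vps28, the 3 smallest p for siCtrl#2, genes under the count minimum, isoform pairs, and per list the smallest p in each direction; others are said to be named after their values were seen or are listed as called. One subunit gene, counted in all totals, and a leukocyte marker are not reported here by name.

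Alternatives were DESeq2 1.42.0, RLE size factors, no count filter, a minimum of 10 counts per library, noncoding genes included, either or both nontargeting siRNAs as reference, a replicate block, only the groups compared, a 1.5-fold minimum, and each library left out. Replicate numbers are batches in the labels and thus pair the libraries; deviations from group means correlated at 0.149 on average between the 45 pairs with the same number and at -0.0751 between the 90 others. No 2 replicates agreed within sampling noise (chi-square of at least 5.31 per gene). Shared sequence (50-base stretches) and exon overlap were measured on whole transcripts of the GRCh37 annotation, since the positions of the amplicons were not used here. Reads carry no molecular identifiers. The p-values measure the spread between the 3 replicates of each group.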

Additional observations from a re-analysis of the deposited data

Results flagged for a closer look

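Differences between the siTsg101 and the siVps28 groups passed the test for 6 subunit genes in the direct contrast, which cannot separate target from siRNA sequence. These were 4 higher and 2 lower (5.41% and 2.7% of the 74), below the 6.56% and 5.26% of all tested genes. The log2 difference was 0.62 for COX8A, 0.46 for ATP5MK, 0.45 for NDUFA5, 0.46 for NDUFS4, -0.41 for COX6A1 and -0.52 for COX7A2L (adjusted p = 0.00858, 0.00811, 0.024, 0.0281, 0.0185 and 0.000694 in that order, edgeR). COX7A2L had all 6 siTsg101 libraries below the other 12 libraries.

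Differences between the 2 siRNAs against TSG101 passed the test for COX5B (1.21, adjusted p = 0.00345), COX7A2 (-1.25, adjusted p = 0.0331) and UQCRC2 (-0.467, adjusted p = 0.0486), each as siTsg101#1 minus siTsg101#2 on the log2 scale by edgeR. With 1 higher and 2 lower, the shares were 1.35% and 2.7% of the 74, below the 3.71% and 4.24% of all tested genes. TSG101 itself fell by 4.84 with siTsg101#1 and by 5.10 with siTsg101#2 on the log2 scale, and the 2 siRNAs were not compared on it.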

How the results depend on the processing

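With siCtrl#2 as the reference 17 of the 74 subunit genes had the other sign over the mean of the 4 siRNAs, of which 1 was called with either reference, NDUFB6 (-0.859). Of 208 genes of the other lists 50 had the other sign, and 4 of these were called against siCtrl#1, namely NDUFAF3, MRPS28, MRPS2 and EPCAM. With siCtrl#2 as the reference the mean of the 4 siRNAs gave 0 subunit genes higher and 3 lower, siTsg101#1 gave 5 calls and siVps28#1 gave 0; against both nontargeting groups averaged, siVps28#1 also gave 0. A 1.5-fold minimum left 0 higher and 0 lower over the mean, where 874 and 668 of 10213 tested genes passed. It left 9 with siTsg101#1, where 1201 tested genes rose and 1027 fell. Between Tsg101 and Vps28 it left 1 higher and 0 lower, where 425 and 211 tested genes passed. Without a count filter siVps28#2 gave 4 calls and siCtrl#2 gave 2, and at a minimum of 10 counts per library siVps28#2 gave 1. With the replicate block 3 were higher and 6 lower over the mean, beside 14% and 13.4% of all tested genes. siTsg101#1 gave 16 calls (1574 tested genes higher, 1466 lower) and siTsg101#2 11 (1417 and 1169). siVps28#1 gave 1 (698 and 569) and siVps28#2 2 (1020 and 881). Between Tsg101 and Vps28 6 were higher and 2 lower (809 and 697). For single siRNAs with another reference or count filter, and with a library left out, calls over all tested genes were not counted.

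Leaving out each library in turn gave 1 to 3 genes higher and 1 to 8 lower over the mean; the higher count was 1 without siCtrl#1 replicate 3, and the lower one was 2 without siCtrl#1 replicate 1, 1 without siCtrl#1 replicate 2, and 3 without replicate 1 of siVps28#1 or of siVps28#2. siTsg101#1 gave 10 to 15 calls. siTsg101#2 gave 3 to 13, with 4 without its replicate 1, 3 without its replicate 2 and 6 without siCtrl#1 replicate 2. siVps28#1 gave 0 to 3, with 3 without siCtrl#2 replicate 1 and 0 without siCtrl#1 replicate 2 or 3 or its own replicate 1 or 3. siVps28#2 gave 0 to 3, with 0 without siCtrl#1 replicate 1 or 2 or its own replicate 1, and 1 without siCtrl#1 replicate 3, siTsg101#1 replicate 3, siTsg101#2 replicate 1 or 3, any replicate of siVps28#1, or its own replicate 2 or 3. siCtrl#2 gave 0 to 2, with 2 without its replicate 1. Between Tsg101 and Vps28, 2 to 5 were higher and 1 to 3 lower, with 2 higher without siTsg101#1 replicate 2 or siVps28#2 replicate 3, and 1 lower without replicate 2 of siTsg101#1 or of siTsg101#2. The median change over the mean of the 4 siRNAs stayed between -0.106 and -0.0575. The causes were not tested. The SE of the mean change was largest for NDUFB7 (0.443), NDUFB6 (0.332), COX7A2 (0.324) and NDUFB3 (0.288).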
